A study of Homo sapiens with 10 samples.

Results

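Amino acid transporters outside system xc- are described here as 9 genes, taken by Ensembl gene ID from a ribosome profiling table of 20289 genes: SLC7A5 (ENSG00000103257), SLC3A2 (ENSG00000168003), SLC1A5 (ENSG00000105281), SLC38A2 (ENSG00000134294), SLC38A1 (ENSG00000111371), SLC1A4 (ENSG00000115902), SLC7A1 (ENSG00000139514), SLC7A6 (ENSG00000103064) and SLC7A8 (ENSG00000092068). The list follows function and its rule uses no measured value, although it was drawn up with earlier results of these data known. All 9 IDs were in the table. Libraries were made from the established lines CFPAC-1 and PANC-1, both derived from pancreatic ductal adenocarcinoma, and only cells that survived the treatment were collected. There were 2 CFPAC-1 libraries with imidazole ketone erastin (IKE) at 10 µM and 2 with DMSO at 0.1%, and 4 PANC-1 libraries with IKE at 1 µM and 2 with DMSO at 0.1%. IKE is a derivative of erastin, a compound class that blocks cystine import through system xc- and so induces ferroptosis, a cell death driven by iron and lipid peroxidation. The treatment label gives 24 h, while the extract protocol describes repeated treatment over consecutive days, so the exposure is not settled. No IKE dose was common to the lines, so line and dose cannot be told apart in contrasts between lines that use IKE libraries. The DMSO libraries of both lines had 0.1% DMSO. The labels call the replicates biological, without saying what was separate between them, so p-values measure only the spread between these libraries.

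Amino acid transporters of the plasma membrane work as a network. SLC3A2, the heavy chain also called CD98, carries no amino acid itself but brings light chains to the cell surface. SLC7A5 (LAT1) is the light chain that exchanges large neutral amino acids such as leucine, SLC7A8 (LAT2) is a related exchanger, SLC7A6 (y+LAT2) exchanges arginine for neutral amino acids, and SLC7A11, the cystine light chain that IKE blocks, uses the same heavy chain. SLC1A5 (ASCT2) and SLC1A4 (ASCT1) are sodium-dependent exchangers of small neutral amino acids, glutamine being carried by SLC1A5. SLC38A2 (SNAT2) and SLC38A1 (SNAT1) use sodium to load cells with glutamine and other neutral amino acids, and SLC7A1 (CAT1) takes up arginine and lysine. Several of these genes are known targets of ATF4, the transcription factor made when amino acids run short, which binds composite elements with the letters TGATGNAA at their core.

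In GRCh38.p14, SLC7A5 lies at chr16:87830023-87869507 (minus strand), SLC3A2 at chr11:62856109-62888860 (plus strand), SLC7A6 at chr16:68264526-68301819 (plus strand) and SLC7A8 at chr14:23125295-23183660 (minus strand). SLC1A5 lies at chr19:46774883-46788594 (minus strand) and SLC1A4 at chr2:64988479-65023865 (plus strand). SLC38A1 at chr12:46183063-46269043 and SLC38A2 at chr12:46358188-46372773 are on the minus strand of the same chromosome, and SLC7A1 lies at chr13:29509414-29595688 (minus strand).

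All 9 symbols matched RefSeq start-site windows of 300 bases (250 upstream of an annotated start), 18 windows in all because some genes have several starts. TGATGNAA was searched on both strands. It occurred in 5 of the 18 windows, in 5 of the 9 genes, against 3.62% of 35116 windows and 4.46% of 27305 genes in the whole RefSeq table. The 9 genes had more windows per gene than the whole table, so the shares of genes are not like for like. A match is a run of letters and was not tested as a binding site. Positions below count from the start of the window that holds the match. Only for SLC7A1 was this start the outer end of the gene. It lay inside the gene for SLC3A2 (chr11:62881699), SLC1A5 (chr19:46784814), SLC38A1 (chr12:46266516) and SLC1A4 (chr2:64989399). The windows at the outer starts of SLC3A2, SLC1A5 and SLC1A4 held no match. The 30 bases around each match are shown on the gene's strand, with the match in capitals (TGATGNAA, or its complement where the match is on the opposite strand), because these genes are discussed together below.
SLC3A2, chr11:62881719-62881748, match 38 to 45 bases after the start: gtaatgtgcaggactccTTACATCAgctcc
SLC7A1, chr13:29595663-29595692, match 8 to 15 bases after the start: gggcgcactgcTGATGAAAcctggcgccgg
SLC1A5, chr19:46784893-46784922, match at -97 to -90 from the start: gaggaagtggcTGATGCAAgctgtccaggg
SLC38A1, chr12:46266502-46266531, match at -4 to 4 around the start: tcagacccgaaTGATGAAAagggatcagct
SLC1A4, chr2:64989381-64989410, match at -7 to 1 around the start: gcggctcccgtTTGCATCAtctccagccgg

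No TGATGNAA was in the windows of SLC7A5, SLC38A2, SLC7A6 or SLC7A8, which says nothing about sites outside these windows. For SLC7A5, which had the largest log2 difference of the tested members in each of the 4 comparisons below, the 250 bases upstream of its single start are shown. The capitals mark CACGTG, the palindromic E-box letters that MYC and related factors are known to bind, found at -130 to -125. CACGTG was in 3 of the 18 windows, against 7.26% of all windows.
SLC7A5, chr16:87869508-87869757, minus strand: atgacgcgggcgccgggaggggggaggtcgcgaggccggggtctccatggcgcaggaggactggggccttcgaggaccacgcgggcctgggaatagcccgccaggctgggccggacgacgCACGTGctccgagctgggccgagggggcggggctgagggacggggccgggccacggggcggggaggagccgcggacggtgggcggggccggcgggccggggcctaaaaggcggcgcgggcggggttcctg

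A footprint value is given in FPKM, fragments scaled for the length of the gene and the size of the library. Which length was used, that of the coding sequence or of the whole transcript, was not established. Orders and ratios of different genes below therefore hold for these FPKM and may differ with another length. A footprint value reflects mRNA abundance and translation together, and in bulk libraries fewer cells expressing a gene and less RNA per cell cannot be told apart. An IKE effect below means the difference between the IKE and DMSO libraries of a line. Only surviving cells were collected, and whether cells changed or cells with other levels survived was not tested. Relative depth, read from the steps of low values with CFPAC-1 DMSO replicate 1 as 1, was 0.896 to 1.15 in CFPAC-1 and 0.206 to 0.865 in PANC-1, where IKE replicates 4 and 2 (0.206 and 0.24) were the shallowest. Those steps came out as whole reads for only 40.3% of 1049 low genes, within 0.08 reads plus an allowance for rounded values. Read numbers were therefore not recovered and the values were not tested as counts. The 10 most abundant genes of a library held 23.1% of summed FPKM in PANC-1 IKE replicate 4, 16.2% in replicate 2 and 12.2% in replicate 3, against 8.51% to 9.64% in the other 7 libraries. The table carries IDs only, so markers of pancreatic epithelium or of other cell types were not checked.

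The first question was how these genes differed between IKE at 10 µM and DMSO in CFPAC-1. Footprints of SLC7A5, SLC3A2 and SLC7A1 were higher with IKE, SLC7A5 about 4.1-fold and the other pair about 2.4-fold. All 8 members that could be tested were higher in both IKE libraries than in either DMSO library, with a median log2 difference of 1.03, against -0.01 over 13125 genes tested. Among all genes, 20.2% lay wholly higher with IKE in this way. With limma, 3 of the 8 members were called higher and 0 lower, where 0.267% of all genes were called higher and 0.0838% lower, a call being a Benjamini-Hochberg adjusted p under 0.05 over all genes. At an unadjusted p under 0.05, 6 members were higher, against 5.97% of all genes. SLC7A8, with a mean of 0.944 FPKM, fell below the limit of 1 FPKM for testing.

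Both the heavy chain and its large neutral light chain were higher with IKE, the light chain more so. SLC7A5 had 74.4 and 73.4 FPKM in the IKE libraries, against 17.7 and 18.05 FPKM in the DMSO libraries. The replicates nearly coincided and the groups lay far apart. The difference on the log2(FPKM + 1) scale, used for all differences below, was 1.99 ± 0.15 (SE, adjusted p from limma = 0.000144), the 22nd highest of 13125 genes.

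SLC3A2 had 651 and 668 FPKM with IKE, against 251 and 303 FPKM with DMSO. It had the highest FPKM of the 9 genes in both CFPAC-1 groups, and its log2 difference was 1.26 ± 0.13 (SE, adjusted p from limma = 0.00198). SLC7A1, the arginine and lysine carrier, had 51.5 and 50.8 FPKM with IKE, against 23.9 and 18.9 FPKM with DMSO. Its log2 difference was 1.23 ± 0.19 (SE, adjusted p from limma = 0.0208).

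The glutamine carriers were higher with IKE without passing the threshold. SLC1A5 had 326 and 283 FPKM with IKE, against 127 and 133 FPKM with DMSO, a log2 difference of 1.22 ± 0.24 (SE, adjusted p from limma = 0.0713). SLC38A2 had 326 and 350 FPKM with IKE, against 176 and 201 FPKM with DMSO, a difference of 0.84 ± 0.17 (SE, adjusted p from limma = 0.0818). For both genes the IKE libraries lay well above the DMSO libraries. SLC38A1, the related carrier, had 87.6 and 102 FPKM with IKE, against 63.0 and 74.1 FPKM with DMSO, and its 95% interval for the log2 difference, -0.05 to 0.97, included 0.

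The low members gave little. SLC7A6 had 5.44 and 4.36 FPKM with IKE, against 2.10 and 2.72 FPKM with DMSO, a log2 difference of 0.79 ± 0.30 (SE, adjusted p from limma = 0.33). SLC1A4 had 1.81 and 1.72 FPKM with IKE, against 0.95 and 1.54 FPKM with DMSO (limma adjusted p = 0.764), and at such levels the added 1 FPKM flattens any fold. SLC7A8 had 0.15 and 1.77 FPKM with IKE, against 0.51 and 0.99 FPKM with DMSO, so its groups overlapped.

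**Figure D1:**
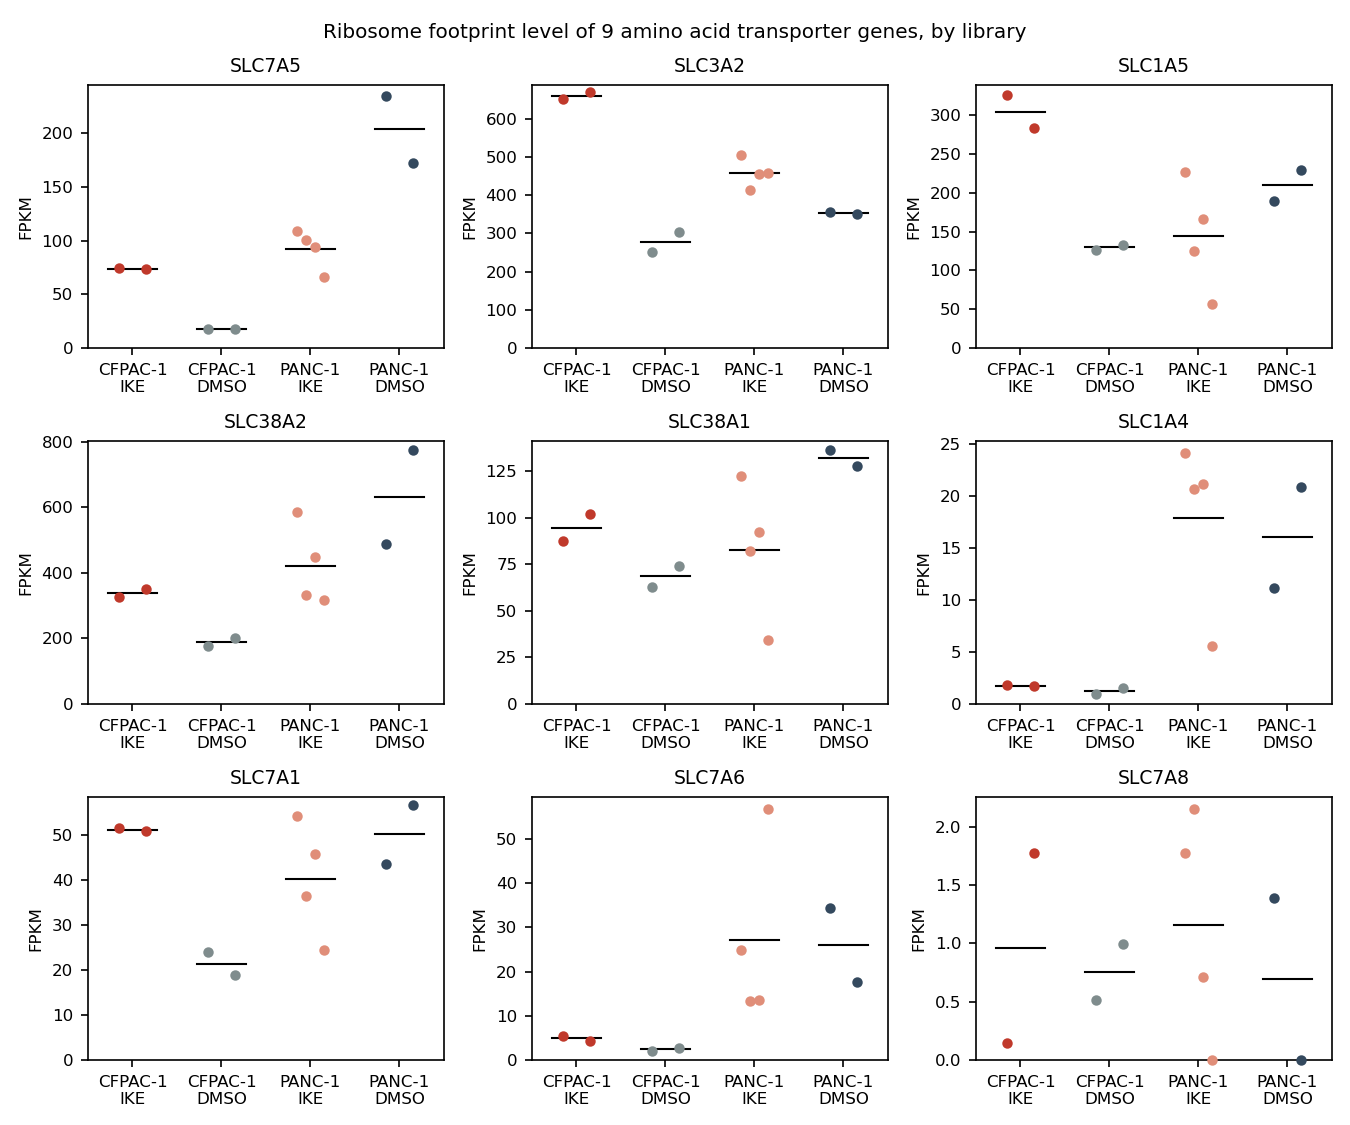
Footprint level (FPKM, linear axis from 0) of each gene in each library, with IKE left of DMSO within each line; points are libraries and bars are group means. CFPAC-1 points lie close together for most genes, though not for SLC7A8, and IKE lies above DMSO for every gene but SLC7A8. In PANC-1 the IKE points spread widely for most genes, least for SLC3A2, and lie wholly below DMSO for SLC7A5 (66.1 to 109 FPKM against 173 and 235 FPKM).

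Which CFPAC-1 calls hold depends on the spread used. In a fit of the CFPAC-1 libraries alone the adjusted p was 0.0129 for SLC7A5, 0.0348 for SLC3A2, 0.0348 for SLC1A5, then called as well, and 0.119 for SLC7A1; with 1 spread shared by both lines it was 0.142, 0.481, 1 and 1. The call of SLC7A1 was also lost without any 1 of the 4 CFPAC-1 libraries (adjusted p 0.0919 to 0.186), whereas those of SLC7A5 and SLC3A2 held without any 1 of the 10 libraries (adjusted p up to 0.0059 and 0.0488).

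The second question was the same for IKE at 1 µM in PANC-1. No member was called, nor was any of the 13125 genes (0% higher, 0% lower; 1429 genes at an unadjusted p under 0.05 with limma, and 2 genes called, none of them a member, when both lines shared 1 spread). Of the 8 tested members 6 had a log2 difference below 0, as did 51.1% of all genes, with a median of -0.47, against -0.02 over all genes. Values wholly lower with IKE were seen for 2 of the 8 members, SLC7A5 and SLC38A1, against 12.2% of all genes, and values wholly higher for 1 of 8, SLC3A2, against 10.2%, a share near that of all genes. At an unadjusted p under 0.05, 1 member was lower, against 6.24% of all genes.

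SLC7A5 had 109, 101, 94.3 and 66.1 FPKM in IKE replicates 1 to 4, against 235 and 173 FPKM in the DMSO libraries. Even the highest IKE library was well under the lowest DMSO library. The log2 difference was -1.14 ± 0.29 (SE), with an unadjusted p of 0.00223 and a limma adjusted p of 0.337, so it did not pass. SLC3A2 had 505, 413, 456 and 456 FPKM in IKE replicates 1 to 4, against 355 and 351 FPKM with DMSO, a log2 difference of 0.37 ± 0.25 (SE, adjusted p from limma = 0.602).

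SLC38A1 had 123, 82.0, 92.6 and 34.1 FPKM in IKE replicates 1 to 4, against 136 and 128 FPKM with DMSO, a log2 difference of -0.80 ± 0.44 (SE, adjusted p from limma = 0.521). SLC1A5 had 227, 125, 166 and 56.7 FPKM with IKE, against 190 and 230 FPKM with DMSO, and SLC38A2 had 585, 331, 448 and 319 FPKM with IKE, against 489 and 774 FPKM with DMSO. For these 2 glutamine carriers the highest IKE library fell inside the DMSO range. Their log2 differences were -0.70 ± 0.46 and -0.59 ± 0.33 (SE, adjusted p from limma = 0.585 and 0.521).

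SLC7A1 had 54.1, 36.4, 45.8 and 24.5 FPKM with IKE, against 43.6 and 56.6 FPKM with DMSO. SLC1A4 had 24.2, 20.7, 21.2 and 5.60 FPKM with IKE, against 11.2 and 20.9 FPKM with DMSO. SLC7A6 had 24.8, 13.3, 13.6 and 56.9 FPKM with IKE, against 34.5 and 17.7 FPKM with DMSO. The groups overlapped for these 3 genes, and their adjusted p was 0.738 to 0.992. SLC7A8 had 1.77, 2.15 and 0.71 FPKM in IKE replicates 1 to 3 and was listed at 0 in replicate 4, against 1.39 FPKM in DMSO replicate 1 and a listed 0 in replicate 2.

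The 4 IKE libraries of PANC-1 differed among themselves. Replicate 4 had the lowest value of 7 of the 9 members and the highest of SLC7A6, and replicate 1, the deepest of the 4, had the highest value of 7 members. Replicate 4 was also the shallowest library and the one with most of its FPKM in a few genes. The part of depth in these values was not tested. Without replicate 4 the log2 difference of SLC7A5 was -0.98 (adjusted p = 0.316), and over the 10 fits that left out a library it ran from -1.36 to -0.92. Other members moved more. Without IKE replicate 4 the difference was -0.31 for SLC1A5, -0.43 for SLC38A1 and -0.14 for SLC7A1. Leaving out DMSO replicate 1 gave -0.92 for SLC38A2 and -0.54 for SLC7A1, and leaving out DMSO replicate 2 gave -0.26 and -0.17. SLC1A4 and SLC7A6 turned direction when single libraries were left out.

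**Figure D2:**
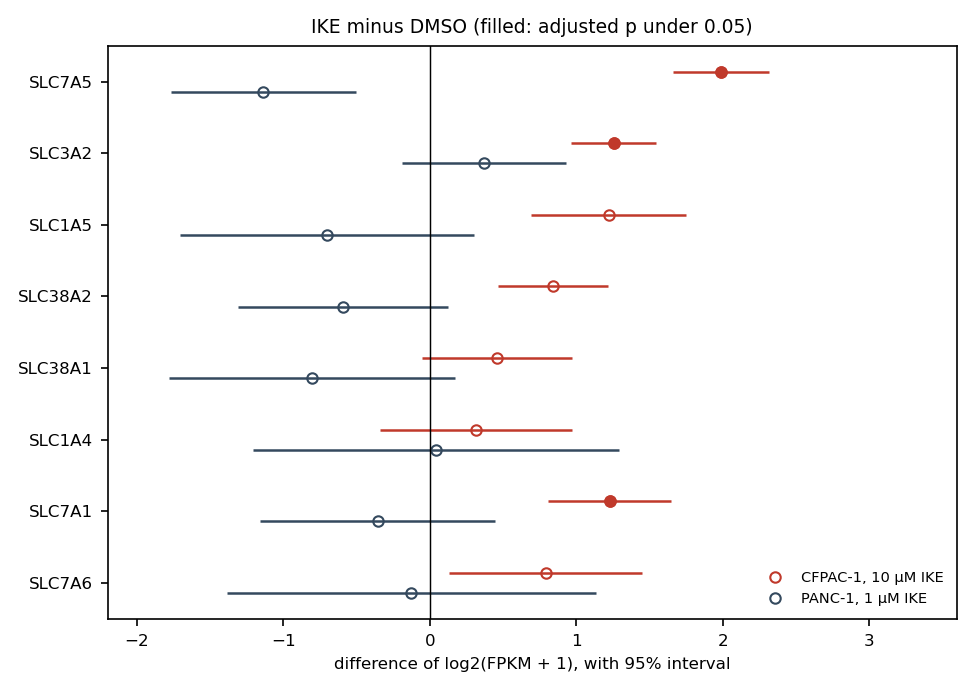
Difference of log2(FPKM + 1) between IKE and DMSO for the 8 tested genes, with 95% intervals, in CFPAC-1 (red) and PANC-1 (blue); filled points are called. The CFPAC-1 points run from 0.31 to 1.99, while the PANC-1 points run from -1.14 to 0.37, and SLC7A5 shows the widest gap between the lines.

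The third question was whether the IKE effects differed between the lines. SLC7A5 differed most: its log2 change was -1.14 in PANC-1 and 1.99 in CFPAC-1, a difference of -3.12 ± 0.32 (SE, adjusted p from limma = 0.00706). It was 1 of 2 genes with a called difference below 0, 0.0152% of all genes, with 0.00762% called above 0, and it was the 14th lowest of 13125 differences. All 8 tested members had a difference below 0, with a median of -1.35, against -0.01 over all genes, and 50.7% of all genes lay below 0. At an unadjusted p under 0.05, 6 of the 8 were lower, against 7.28% of all genes.

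The remaining 7 differences did not pass the threshold. The difference was -1.92 ± 0.52 for SLC1A5, -1.58 ± 0.41 for SLC7A1 and -1.44 ± 0.37 for SLC38A2 (SE, adjusted p from limma = 0.247 for each). It was -1.265 ± 0.50 for SLC38A1 and -0.89 ± 0.29 for SLC3A2 (SE, adjusted p from limma = 0.348 and 0.288). SLC7A6 and SLC1A4 had intervals that included 0, from -2.34 to 0.51 and from -1.68 to 1.14. The call of SLC7A5 was lost without PANC-1 DMSO replicate 1 (adjusted p = 0.14) or replicate 2 (0.116), where the lone DMSO library left was assumed to vary like the rest, and held without any 1 of the other 8 libraries (adjusted p up to 0.0444). With 1 spread shared by both lines it was 0.0374.

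The last question was how the levels of PANC-1 compared with those of CFPAC-1, both in DMSO. PANC-1 carried more footprints on the transporters: 5 of the 8 tested members were called higher and 0 lower, where 16.8% of all genes were called higher and 21.1% lower. All 8 lay wholly above CFPAC-1, against 33.8% of all genes, and their median log2 difference was 1.45, against -0.03 over all genes. SLC7A5, at 235 and 173 FPKM in PANC-1 and 17.7 and 18.05 FPKM in CFPAC-1, had the largest difference of the members, 3.42 ± 0.26 (SE, adjusted p from limma = 2.69e-06).

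SLC7A6 and SLC1A4, both scarce in CFPAC-1, followed. SLC7A6 averaged 26.1 ± 11.9 FPKM in PANC-1 and 2.41 ± 0.44 FPKM in CFPAC-1 (SD, n = 2 each), with a log2 difference of 2.92 ± 0.51 (SE, adjusted p from limma = 0.00114). SLC1A4 averaged 16.0 ± 6.9 FPKM in PANC-1 and 1.245 ± 0.417 FPKM in CFPAC-1 (SD, n = 2 each), a difference of 2.88 ± 0.51 (SE, adjusted p from limma = 0.00122). Their size depends on the added 1 FPKM, and with 0.1 and 5 FPKM added in its place the difference was 3.32 and 2.02 for SLC7A6 and 3.55 and 1.71 for SLC1A4.

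SLC38A2 averaged 632 ± 201 FPKM in PANC-1 and 188 ± 18 FPKM in CFPAC-1 (SD, n = 2 each), a log2 difference of 1.71 ± 0.29 (SE, adjusted p from limma = 0.000964). SLC7A1 averaged 50.1 ± 9.2 FPKM in PANC-1 and 21.4 ± 3.5 FPKM in CFPAC-1 (SD, n = 2 each), a difference of 1.19 ± 0.33 (SE, adjusted p from limma = 0.0148), a call lost without PANC-1 DMSO replicate 1 (adjusted p = 0.0566) or replicate 2 (0.134). SLC38A1, SLC1A5 and SLC3A2 were 0.94, 0.68 and 0.36 higher on the log2 scale without being called (limma adjusted p = 0.0858, 0.219 and 0.246). SLC38A1 was called without PANC-1 IKE replicate 4 (limma adjusted p = 0.0113) and with upper-quartile scaling (0.0479). It stayed uncalled in 18 of 21 alternatives, and SLC1A5 in 20 of 21. SLC7A8 was listed at 1.39 FPKM and 0 in PANC-1, against 0.51 and 0.99 FPKM for the CFPAC-1 libraries.

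**Figure D3:**
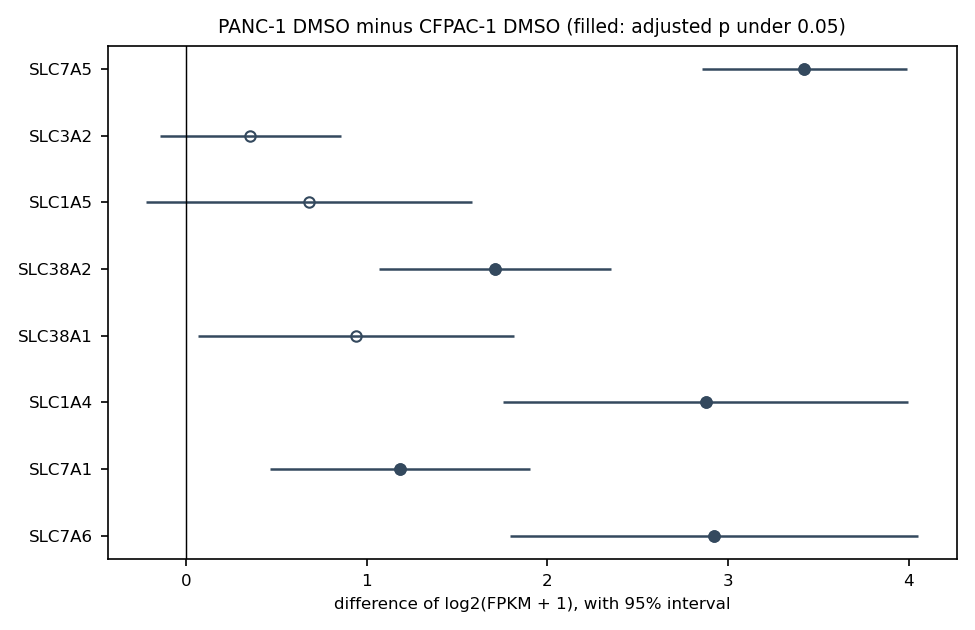
Difference of log2(FPKM + 1) between PANC-1 and CFPAC-1 in DMSO for the 8 tested genes, with 95% intervals; filled points are called. All 8 points lie above 0, from 0.36 for SLC3A2 to 3.42 for SLC7A5.

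The gap in SLC7A5 was much narrower among the IKE libraries. In DMSO the mean FPKM of SLC7A5 was 11.4 times as high in PANC-1 as in CFPAC-1, while with IKE it was 1.25 times as high, and the 4 PANC-1 IKE libraries (66.1 to 109 FPKM) spanned both CFPAC-1 IKE libraries. For SLC7A1 the ratio of PANC-1 to CFPAC-1 was 0.785 with IKE and 2.34 with DMSO, and for SLC1A5 it was 0.472 with IKE and 1.61 with DMSO. For SLC1A4 the ratio was 10.2 with IKE and 12.9 with DMSO, and for SLC7A6 it was 5.54 with IKE and 10.8 with DMSO. Without PANC-1 IKE replicate 4 the IKE ratio of SLC7A6 was 3.52. These ratios of group means at unlike doses are given as a description, with no test.

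Because SLC3A2 serves several light chains, the summed level of SLC7A5, SLC7A6 and SLC7A8 was set against it in each library. In CFPAC-1 the ratio was 0.123 and 0.119 with IKE, against 0.081 and 0.0718 with DMSO. PANC-1 had ratios of 0.269, 0.281, 0.238 and 0.269 in IKE replicates 1 to 4, against 0.763 and 0.542 with DMSO. The IKE libraries thus lay above DMSO in CFPAC-1 and below it in PANC-1, and in neither line did the groups overlap. The ratio was not tested, and no share over other sets of genes was computed for it. Since SLC7A5 made up most of the sum, the ratio largely restates the levels of SLC7A5 and SLC3A2 given above. By FPKM, SLC3A2 exceeded the summed light chains in all 10 libraries. The light chain SLC7A11, which shares SLC3A2, is not in this sum because its row was not named here.

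SLC7A5 made up most of the summed light chains: 92.3% and 93.0% in CFPAC-1 IKE libraries against 83.0% and 87.1% with DMSO, and 80.4%, 86.7%, 86.8% and 53.8% for replicates 1 to 4 of PANC-1 with IKE, against 86.7% and 90.7% with DMSO. The low share in PANC-1 IKE replicate 4 came with its 56.9 FPKM of SLC7A6, 46.2% of the sum there.

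**Figure D4:**
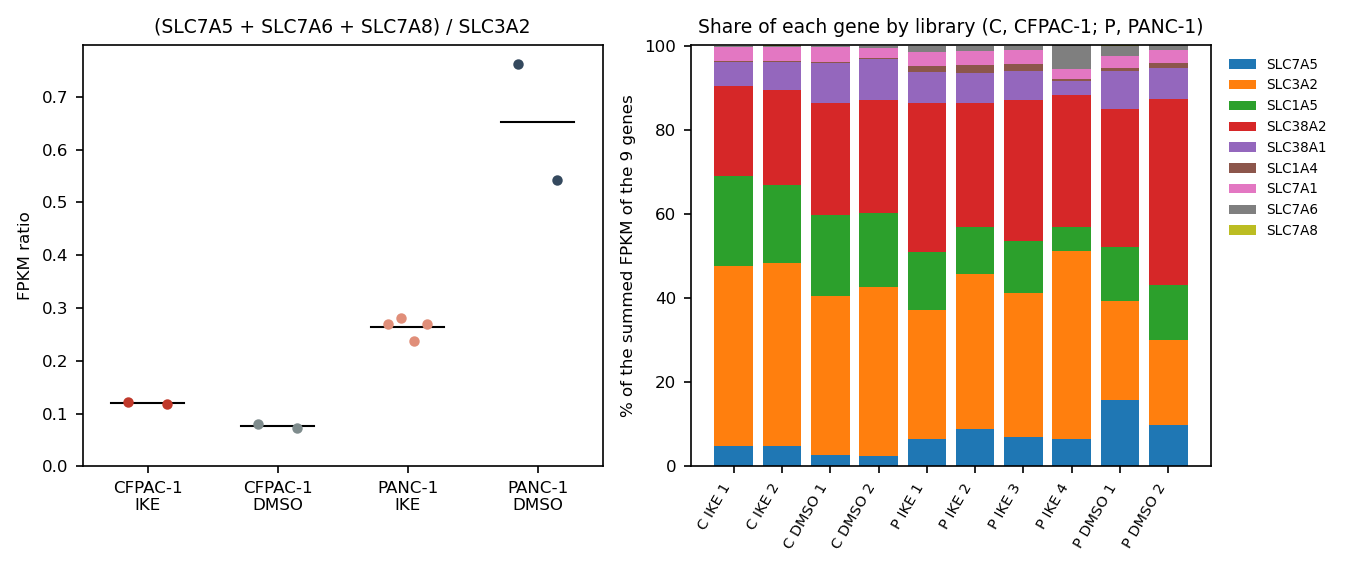
Left, FPKM of SLC7A5, SLC7A6 and SLC7A8 summed and divided by that of SLC3A2, by library, with bars at group means; right, each gene's share of the summed FPKM of all 9 genes in each library (linear axes from 0). The ratio is 0.119 to 0.123 in CFPAC-1 IKE against 0.0718 to 0.081 in DMSO, and 0.238 to 0.281 in PANC-1 IKE against 0.542 to 0.763 in DMSO.

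The order of the levels was much alike in all 4 groups. SLC3A2, SLC38A2 and SLC1A5 were the 3 highest in each group by mean FPKM, and SLC7A6, SLC1A4 and SLC7A8 the 3 lowest. SLC3A2 led in CFPAC-1 with IKE, in CFPAC-1 with DMSO and in PANC-1 with IKE, at means of 659, 277 and 458 FPKM, while SLC38A2 led in PANC-1 with DMSO, at 632 FPKM. In PANC-1 with IKE the ranges of SLC3A2 and SLC38A2 overlapped, so their order there is not fixed. SLC7A5 stood at place 5 in CFPAC-1 with IKE and place 6 with DMSO, where it lay below SLC7A1, and at place 4 in both PANC-1 groups, where its range overlapped that of SLC1A5. Neighbours in the order overlapped for 2 of 8 pairs in CFPAC-1 with IKE, 1 of 8 with DMSO, 6 of 8 in PANC-1 with IKE and 2 of 8 with DMSO.

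Summed over the 9 genes, the level was 1523 and 1536 FPKM in CFPAC-1 with IKE, against 662 and 753 FPKM with DMSO. PANC-1 had 1653, 1125, 1339 and 1019 FPKM in IKE replicates 1 to 4, against 1495 and 1751 FPKM with DMSO, so its groups overlapped. In CFPAC-1 SLC3A2 alone held 42.7% and 43.5% of the sum with IKE, against 37.9% and 40.2% with DMSO.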

How the data were processed

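The deposited table holds values named FPKM per the file headers, 1 per gene and library, already scaled by the authors for gene length and library size. Tools listed without role or order are RSEM, STAR, fastp, DESeq2 and Bowtie2 2.2.8, with build GRCh38, per the submitters' processing notes. No source used here gives the annotation or strand setting. Per the labels' protocols, ribosomes were arrested with cycloheximide and lysates digested with RNase I.

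The members, lists and tests were chosen with earlier results of these data known. The 13125 genes averaging 1 FPKM or more were fitted on log2(FPKM + 1) with limma 3.58.1 in R 4.3.3: 4 groups, empirical Bayes with trend, Benjamini-Hochberg adjustment over all genes, calls at 0.05. Because the median residual SD was 0.481 in PANC-1 and 0.18 in CFPAC-1, each line got its own weight (0.532 and 2.58), unlike an earlier fit with 1 spread. On simulated data with each line's spread, the weighted fit called more unchanged genes in CFPAC-1 than its threshold allows. The unweighted fit did so in PANC-1. Fits of each line alone therefore stand beside the IKE calls in CFPAC-1. Contrasts between the lines have no such fit. With 1 spread shared by both lines, the member calls at baseline held (limma adjusted p 1.48e-05 to 0.0299). All 9 members were named. The 97 genes of 8 further lists, the markers and the genes most like SLC7A5 were not examined because 0 of 20289 IDs matched a name in the reference tables used here; the members' names came with their IDs. Start-site windows and coordinates are from RefSeq. Alternatives covered weights, pseudocounts, filters, scaling, pairing and leaving out libraries.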

Additional observations from a re-analysis of the deposited data

Results flagged for a closer look

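SLC7A5 was the single member whose IKE effect differed between the lines by a test of the difference itself, -3.12 on the log2(FPKM + 1) scale (limma adjusted p = 0.00706), with all 4 PANC-1 IKE libraries below both DMSO libraries and both CFPAC-1 IKE libraries above theirs. Dose and line changed together in this contrast. SLC1A4 in PANC-1 IKE replicate 4, at 5.60 FPKM or 2.72 on the log2(FPKM + 1) scale, lay apart from the other 3 IKE libraries. The gap to its nearest neighbour was 0.889 of the range on that scale, above Dixon's 95% limit of 0.829 for 4 samples, and 0.812 in FPKM, below it. The log2 scale was examined after seeing the data, and chance passes this limit in about 1 of 20 groups. No other member passed it on either scale, nor did the light chain to heavy chain ratio, and groups of 2 libraries were not examined in this way.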

How the results depend on the processing

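The number of genes called for IKE in CFPAC-1 was 46, and it moved to 1 without line weights, 16 in the fit of the line alone, 77 with 5 FPKM added, 28 without PANC-1 IKE replicates 2 and 4 together and 8 with the replicate block, and ran from 14 to 44 over the fits that left out 1 library (14 and 28 without CFPAC-1 DMSO replicates 1 and 2, 24 without CFPAC-1 IKE replicate 2). Members called there numbered 3, with 0 without line weights, 1 with the replicate block (SLC7A5, adjusted p = 0.0188) and 2 to 4 when 1 library was left out. For IKE in PANC-1, 0 genes were called, 2 without line weights or in the fit of the line alone, 1 without the filter or without replicates 2 and 4 together, and 0 to 1 when 1 library was left out, and no member was called under any alternative. For the difference between the lines 3 genes were called, 0 with the replicate block and 0 to 6 when 1 library was left out, 0 being without either PANC-1 DMSO library. Members called there numbered 1, with 0 with the replicate block and 0 to 1 when 1 library was left out. For the baseline 4970 genes were called, 2340 with the replicate block and 2868 to 5606 when 1 library was left out, 2868 being without PANC-1 DMSO replicate 1. Quantile normalization moved the median baseline difference of all genes to 0.10, and the members stayed above it, with SLC3A2 lowest of the tested ones.

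Directions turned for members near 0. In PANC-1 with IKE, leaving out 1 library gave -0.38 to 0.49 for SLC1A4, -0.59 to 0.34 for SLC7A6 and -0.28 to 0.67 for SLC7A8, and leaving out replicates 2 and 4 gave 0.0030 for SLC7A1. The ranges given here for SLC7A8 rest on 3 of the 10 fits that left out 1 library, where its mean reached 1 FPKM. The difference between the lines for SLC1A4 was 0.060 with library weights, 0.22 without replicates 2 and 4, 0.21 with the replicate block and -0.69 to 0.18 when 1 library was left out. SLC7A8 ran from -0.33 to 0.63 there and from -0.17 to 0.46 at baseline, where the replicate block gave 0.52. The cause was not tested. The deviations of libraries with the same replicate number had a correlation across genes of -0.21 for PANC-1 and 0.05 for CFPAC-1. With only replicates 1 and 2 to compare in each group, this cannot decide whether the numbers pair the libraries. The block used replicates 1 and 2 only. Between alternatives and members, 664 of 709 single-gene results kept direction and call. That count takes in uncalled genes that stayed uncalled and fits that left out a library of the other line. Some calls held in a smaller share of the alternatives. For IKE in CFPAC-1 these were SLC7A1 (15 of 22) and SLC3A2 (20 of 22). The calls of SLC7A5 for the difference between the IKE effects and of SLC7A1 at baseline each held in 18 of 21. The ratio with SLC7A11 added was not run. Without SLC7A8 in the sum, the light chain to heavy chain ratio moved by less than its SD in every group. The ratios of PANC-1 to CFPAC-1 with IKE were recomputed without each PANC-1 IKE library, a choice made after seeing the data. Absolute read depth was not recovered, so what it limits was not measured.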

Other observations

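Within the glutamine and small neutral amino acid carriers, the balance of related genes differed by line among IKE libraries and among DMSO libraries. Across treatments the lines overlapped for SLC38A2 over SLC38A1, where PANC-1 DMSO replicate 1, at 3.59, lay between the CFPAC-1 IKE libraries. SLC38A2 was 3.72 and 3.44 times SLC38A1 in CFPAC-1 IKE libraries, against 2.79 and 2.71 times in DMSO libraries. In PANC-1 it was 4.77, 4.04, 4.84 and 9.34 times SLC38A1 in IKE replicates 1 to 4, against 3.59 and 6.05 times in DMSO libraries, so the groups overlapped. SLC1A5 was 180 and 165 times SLC1A4 in CFPAC-1 IKE libraries, against 134 and 86.3 times in DMSO libraries, where SLC1A4 was below 2 FPKM. In PANC-1 it was 9.38, 6.02, 7.84 and 10.1 times SLC1A4 in IKE replicates 1 to 4, against 16.9 and 10.99 times in DMSO libraries. All IKE values lay below both DMSO values there. These ratios were looked at after the levels were known and carry no test.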
